A study of Rattus norvegicus with 52 samples.

Results

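Fibrinogen, complement C3 and the plasma iron carrier transferrin were followed in rat liver by 6 probe sets, out of 8740 non-control probe sets on each array. They were chosen by the accession at the start of the probe set ID, whatever the values: m35601_at and m35601_g_at for Fga, u05675_at for Fgb, m29866_s_at for C3, and d38380_at and d38380_g_at for Tf. The gene names are those paired with these accessions in that rule, since the deposited table holds no names and none of the accessions matched the gene table used. Albumin (Alb) and transthyretin (Ttr), which the same rule names, are not analysed here. All 6 probe sets were bright: the typical (median) rank by intensity on an array was between 4.5 for d38380_at, where 1 is the brightest, and 107 for m35601_at.

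Total RNA came from liver sections of F344 rats, a laboratory strain, that were left untreated or were given clofibric acid (CA) at 0.29% or 0.54%. Clofibric acid is a fibrate, a lipid-lowering drug that activates the nuclear receptor PPARα in hepatocytes. Entire sections gave 8 arrays from untreated controls, 8 at 0.29% CA and 6 at 0.54% CA, and stained sections gave 8, 7 and 5 in the same order. Microdissected liver, taken by laser capture microdissection (LCM) of chosen regions, gave 2 controls, 1 array at 0.29% CA and 1 at 0.54% CA. Dehydrated sections, and those with the label LCM-reference-time, had a single array for each of the 3 doses. Age, sex, route, length of treatment, pooling and the cells dissected are not given in the sources at hand. The labels do not say that the replicates were separate animals, so p-values reflect the spread among these samples, which may be in part technical. Liver sections hold several cell types, and fewer cells of a type cannot be told apart from less RNA per cell. Hepatocyte identity rests here on the members themselves, which are abundant hepatocyte products, because other markers could not be matched to probe sets.

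Hepatocytes make most of the proteins of blood plasma. Fibrinogen is assembled from alpha, beta and gamma chains, the products of Fga, Fgb and Fgg, and thrombin turns it into the fibrin of a clot. C3 is the protein on which all complement pathways converge, and its cleavage marks microbes for uptake. Transferrin carries ferric iron to cells. Fibrinogen and C3 are acute-phase proteins, whose synthesis in liver rises in inflammation, and their promoters are known to answer to interleukin-6 or related cytokines.

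The promoters are printed because these genes are the ones set side by side below. Each window runs from 250 bases before to 50 bases after the gene start in RefSeq, build GRCr8, 5′ to 3′ on the strand of the gene. All 4 genes were matched by symbol. The windows are chr9:2201290-2201589 (minus strand) for C3, chr8:112695327-112695626 (minus) for Tf, chr2:170671919-170672218 (plus) for Fga, the first of 2 windows listed for it, and chr2:170700826-170701125 (minus) for Fgb. Capitals mark the motifs CTGGGA (a core of interleukin-6 response elements), AGGTCA (the half-site of nuclear receptors such as PPARα) and GTTAAT (a half-site of the hepatocyte factor HNF1), searched on both strands.
C3: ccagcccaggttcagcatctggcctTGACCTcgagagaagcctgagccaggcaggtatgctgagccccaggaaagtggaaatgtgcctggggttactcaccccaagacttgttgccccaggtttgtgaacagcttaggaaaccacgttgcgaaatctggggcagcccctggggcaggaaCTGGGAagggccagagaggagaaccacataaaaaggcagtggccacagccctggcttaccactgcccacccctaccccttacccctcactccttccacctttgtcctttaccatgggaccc
Tf: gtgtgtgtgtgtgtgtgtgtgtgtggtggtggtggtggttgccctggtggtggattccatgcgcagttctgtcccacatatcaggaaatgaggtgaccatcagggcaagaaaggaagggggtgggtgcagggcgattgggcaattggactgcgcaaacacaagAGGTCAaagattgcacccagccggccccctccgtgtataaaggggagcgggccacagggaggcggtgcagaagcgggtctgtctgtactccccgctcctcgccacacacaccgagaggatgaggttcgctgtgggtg
Fga: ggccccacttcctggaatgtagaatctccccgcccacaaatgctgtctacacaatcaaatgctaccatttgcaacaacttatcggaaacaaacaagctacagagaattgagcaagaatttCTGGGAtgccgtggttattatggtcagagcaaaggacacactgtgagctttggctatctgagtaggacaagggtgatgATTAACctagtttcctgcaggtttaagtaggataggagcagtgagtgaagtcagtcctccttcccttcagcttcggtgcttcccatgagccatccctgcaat
Fgb: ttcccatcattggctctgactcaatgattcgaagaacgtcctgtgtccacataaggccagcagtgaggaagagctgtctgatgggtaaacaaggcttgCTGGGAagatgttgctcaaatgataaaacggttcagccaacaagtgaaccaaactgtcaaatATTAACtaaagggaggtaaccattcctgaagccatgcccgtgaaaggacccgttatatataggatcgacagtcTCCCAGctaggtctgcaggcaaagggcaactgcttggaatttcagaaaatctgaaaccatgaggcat
CTGGGA stood 71 bases before the start in C3, 130 before it in Fga, and 152 before it in Fgb. Fgb held it again on the other strand (TCCCAG), 17 bases before the start. GTTAAT was found in its reverse form, ATTAAC, in both fibrinogen promoters, 52 bases before the start in Fga and 90 in Fgb. AGGTCA stood 87 bases before the start in Tf and, as TGACCT, 225 bases before it in C3. Among 33469 windows of this length, 30.3% held CTGGGA, 16.2% held AGGTCA and 7.45% held GTTAAT, so such matches are common and are descriptions only. In GRCr8 the fibrinogen genes are neighbours on chromosome 2, in the order Fgg, Fga, Fgb, whereas Tf lies on chromosome 8 and C3 on chromosome 9.

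Intensities are the deposited linear values. Fold changes were taken from log2 intensities, quantile normalized between the 52 arrays, with limma, and a probe set was called at a Benjamini-Hochberg adjusted p under 0.05 over all probe sets tested. Quantile normalization gives a rank the same value on every array, and so narrows differences between arrays for a probe set that stays near the top. The Tf probe sets were often there, with median ranks of 4.5 for d38380_at and 6.5 for d38380_g_at, although d38380_at ranked as low as 53. Their fold changes for CA are therefore given on the deposited scale as well. The ratio of 3′ to 5′ GAPDH signal, a sign of RNA or label length, had a median of 7.71 in microdissected liver, 4.70 in LCM-reference-time sections, 11.8 in dehydrated sections, 8.45 in stained sections and 1.54 in entire sections. In stained sections its median also moved with dose, from 10.2 in controls through 7.32 at 0.29% CA to 4.47 at 0.54% CA, with ranges that overlapped. In entire sections the medians were 1.36, 1.35 and 2.16 in the same order, also with overlapping ranges. Among entire and stained sections 6 arrays stood apart, namely 3 stained arrays whose 5S rRNA intensity exceeded 200 and 3 entire arrays whose GAPDH ratio exceeded 4. Results of the limma fits that change without them are named below. The 5S rRNA intensity was over 200 also on 3 of 4 microdissected arrays and 1 of 3 LCM-reference-time arrays, groups too small to leave them out together.

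**Figure D1:**
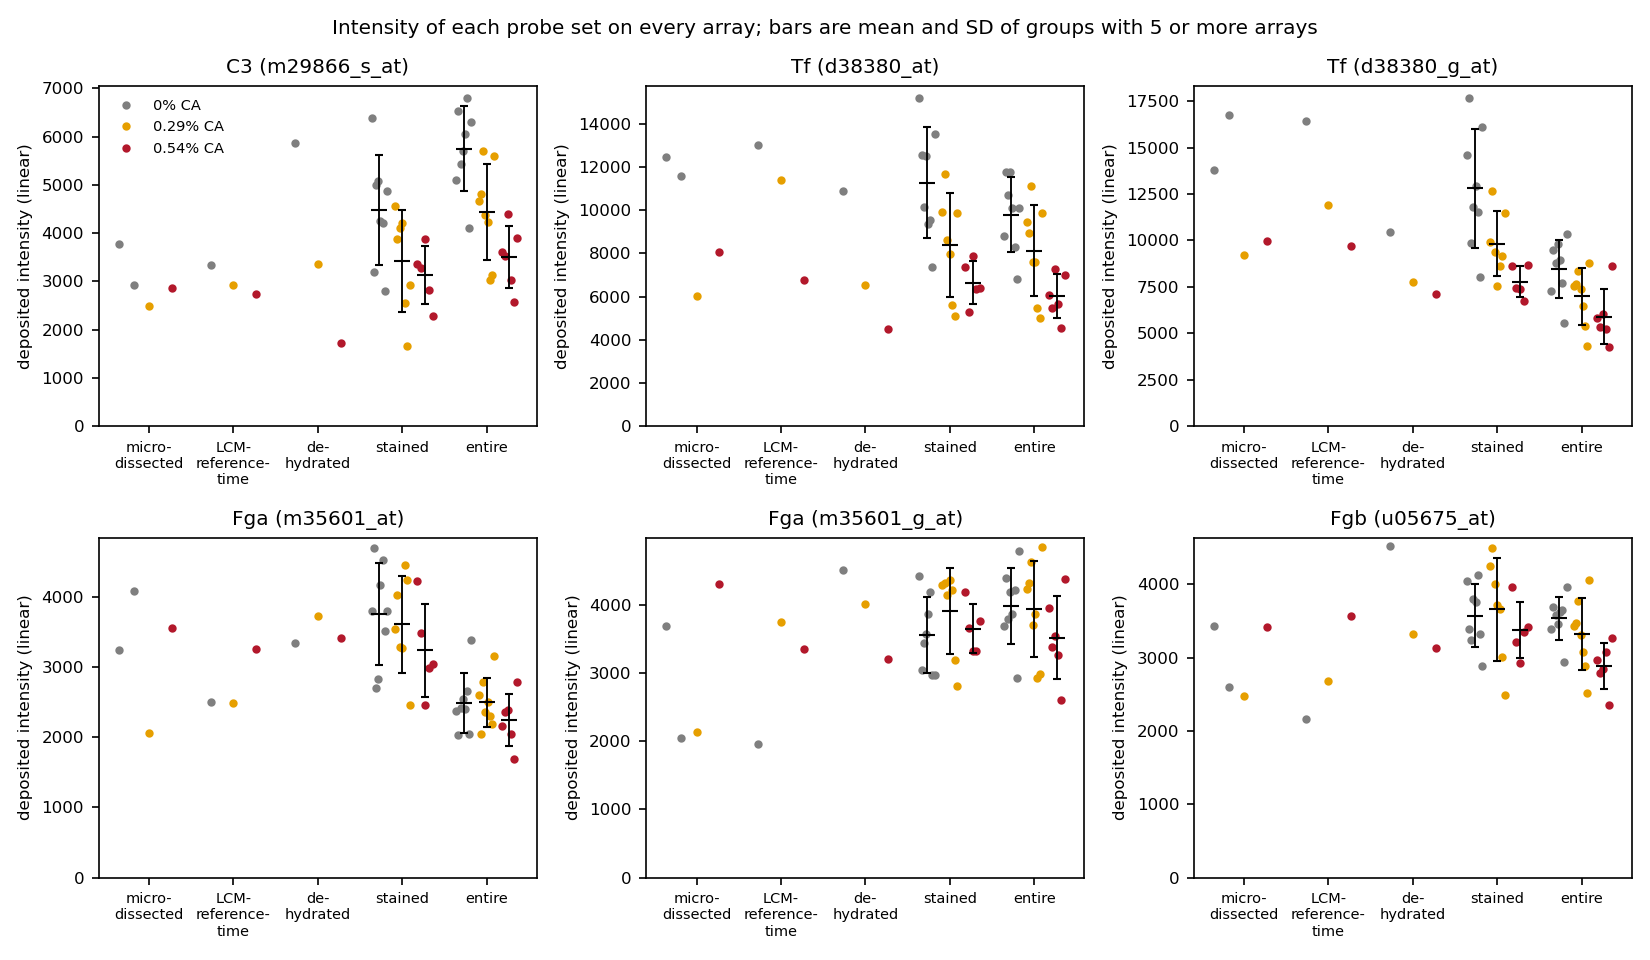
Deposited intensity of the 6 probe sets on each of the 52 arrays, by preparation and dose, on linear axes from 0. Points are arrays, and bars give the mean and SD of groups with 5 or more arrays. C3 in entire sections averages 5754 in controls, 4444 at 0.29% CA and 3506 at 0.54% CA, and the mean of m35601_at of Fga is higher in stained than in entire sections at every dose.

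C3 mRNA fell in entire sections at both doses of CA, and on normalized values it was the member with the largest fall. On the deposited scale its log2 fold change at 0.54% CA was -0.72 ± 0.16 (SE), close to the -0.70 of d38380_at of Tf. In controls the lowest, median and highest C3 intensities were 4106, 5880 and 6795 (mean 5754 ± 873 SD, n = 8). At 0.29% CA they were 3029, 4522 and 5714 (4444 ± 994, n = 8), and at 0.54% CA 2575, 3567 and 4388 (3506 ± 638, n = 6). At the higher dose 5 of 6 arrays lay below every control, and at the lower dose 8 of 8 lay below the control median, although the ranges overlapped.

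The log2 fold change of C3 against control was -0.61 ± 0.11 (SE) at 0.54% CA, 1.53-fold lower, with an adjusted p of 0.000293. At 0.29% CA it was -0.32 ± 0.10, 1.24-fold lower, with an adjusted p of 0.0436. The higher dose against the lower gave -0.30 ± 0.11 with an adjusted p of 0.264, so a difference between the doses was not called. Over all 14 fits without 1 array the call at 0.54% CA stayed, with fold changes between -0.68 and -0.55. The call at 0.29% CA was lost in 10 of 16 such fits: without control replicate 1, 2, 5, 6 or 8, or without 0.29% CA replicate 1, 2, 5, 6 or 7, where the fold change lay between -0.32 and -0.25 and the highest adjusted p was 0.0863. It was also lost when all 15 groups were fitted together (adjusted p = 0.316), on the deposited scale (-0.39, adjusted p = 0.116), after centring arrays on their 75th percentile (-0.43, adjusted p = 0.0983) and without the arrays that stood apart (adjusted p = 0.0761). With the replicate number as a block, the call at 0.29% CA was lost too (adjusted p = 0.0949).

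Counted over the 6 members, 3 were called at 0.54% CA in entire sections, all lower, where 15.8% of the 7804 tested probe sets were called and 7.74% were called lower. At 0.29% CA 1 member was called, lower, beside 11.2% of all probe sets called and 5.69% called lower. Brighter probe sets were called more often. In fits to the 2449 probe sets with a mean intensity above 66, the 75th percentile, 987 were called at 0.54% CA and 735 at 0.29% CA. All 6 members are among those probe sets, and 3 and 1 of them were called there too. Between the doses no member was called, beside 1.01% of all probe sets (79 of 7804). The fitted change at 0.54% CA was below 0 for all 6 members, with a median of -0.16, beside a median of -0.01 and 50.8% below 0 over all tested probe sets. With 6 members, 2 pairs of which share a gene, these shares describe the members and no more.

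Transferrin also fell in entire sections at 0.54% CA, by 1 of its 2 probe sets. The d38380_at intensities were 6827, 10101.5 and 11789 in controls as lowest, median and highest (9797 ± 1725, n = 8). At 0.29% CA they were 5008, 8266 and 11107 (8126 ± 2120, n = 8), and at 0.54% CA 4536, 5879.5 and 7272 (6010 ± 1018, n = 6). At 0.54% CA 4 of 6 arrays lay below every control and all 6 lay below the control median.

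For d38380_at at 0.54% CA the normalized log2 fold change was -0.27 ± 0.09 (adjusted p = 0.0471) and the change on the deposited scale was -0.70 ± 0.18 (adjusted p = 0.00929). For d38380_g_at the same values were -0.11 ± 0.09 (adjusted p = 0.514) and -0.54 ± 0.18 (adjusted p = 0.0504), with 3 of 6 arrays below every control. Its intensities averaged 8480.5 ± 1567 in controls (n = 8), 6986 ± 1517 at 0.29% CA (n = 8) and 5886 ± 1490 at 0.54% CA (n = 6). At 0.29% CA neither probe set was called on either scale: d38380_at changed by -0.04 normalized (adjusted p = 0.870) and -0.30 deposited (adjusted p = 0.337), and d38380_g_at by -0.07 (adjusted p = 0.696) and -0.29 (adjusted p = 0.354). The normalized call of d38380_at at 0.54% CA stayed in 3 of 14 fits without 1 array and was lost without control replicate 1, 2, 3, 4, 6, 7 or 8 or without 0.54% CA replicate 1, 2, 4 or 6, the highest adjusted p being 0.0879. Without 0.54% CA replicate 6 its normalized fold change was -0.17, and the call was lost when all 15 groups were fitted together (adjusted p = 0.294). The call was lost also with the replicate number as a block (adjusted p = 0.0877).

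Of the fibrinogen chains, Fgb fell slightly at 0.54% CA in entire sections, and neither Fga probe set was called. Fgb intensities were 2946, 3604.5 and 3962 in controls (3537 ± 294, n = 8), 2515, 3371.5 and 4060 at 0.29% CA (3316 ± 491, n = 8) and 2355, 2906.5 and 3265 at 0.54% CA (2883 ± 310, n = 6), each as lowest, median and highest. At 0.54% CA 3 of 6 arrays lay below every control.

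The log2 fold change of Fgb was -0.21 ± 0.07 at 0.54% CA, 1.16-fold lower (adjusted p = 0.0377), and -0.09 ± 0.06 at 0.29% CA (adjusted p = 0.496). The call stayed in 5 of 14 fits without 1 array and was lost without control replicate 1, 2, 3, 5, 6 or 8 or 0.54% CA replicate 2, 3 or 5, the highest adjusted p being 0.0961. It was lost also on the deposited scale (-0.30, adjusted p = 0.0815), after centring (-0.34, adjusted p = 0.0964), when all 15 groups were fitted together (adjusted p = 0.0654), without the arrays that stood apart (adjusted p = 0.0688) and when the GAPDH ratio entered the model (adjusted p = 0.0606). With the replicate number as a block, the Fgb call was lost too (adjusted p = 0.0643).

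The alpha chain, Fga, gave an m35601_at intensity of 2484 ± 424 in controls (n = 8), 2494 ± 355 at 0.29% CA (n = 8) and 2239 ± 369 at 0.54% CA (n = 6). Its m35601_g_at intensity was 3984 ± 561 in controls, 3941 ± 710 at 0.29% CA and 3522 ± 609 at 0.54% CA, over the same arrays. At 0.54% CA the log2 fold changes were -0.07 for both, with 95% intervals of -0.31 to 0.17 for m35601_at and -0.24 to 0.11 for m35601_g_at. Those intervals hold 0 and also hold the change measured for Fgb, so a fall of that size in Fga was not excluded.

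**Figure D2:**
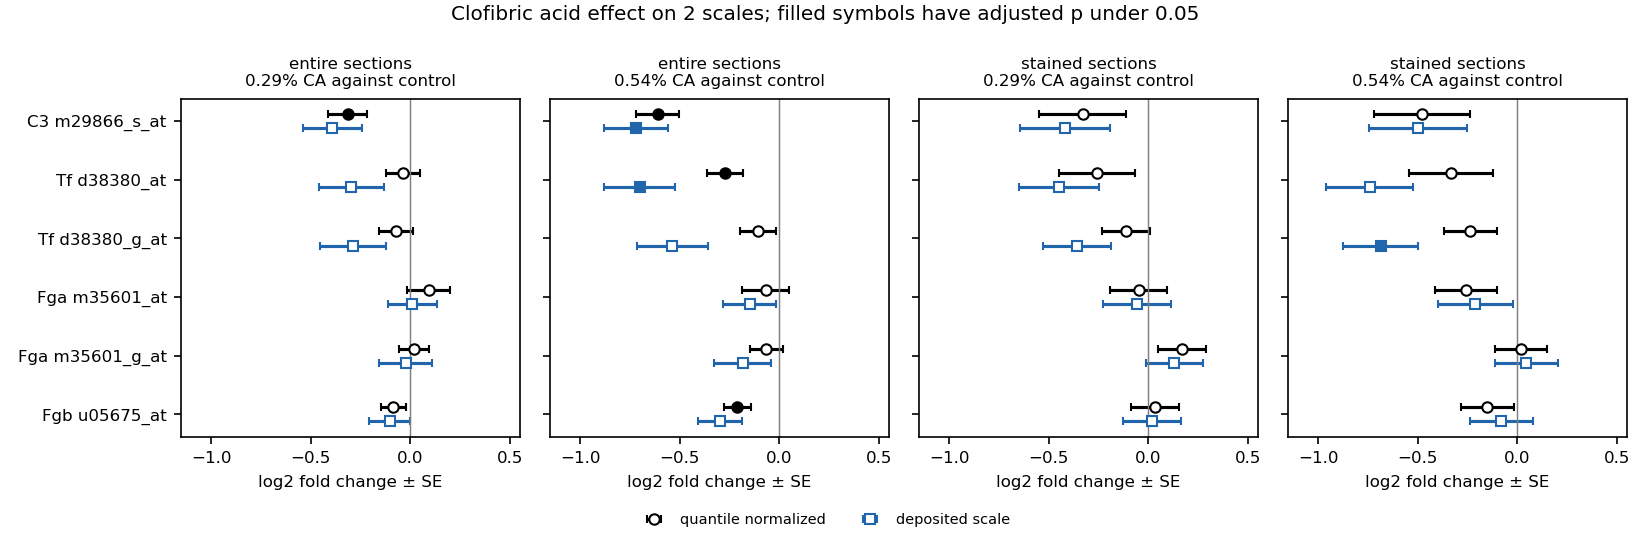
Log2 fold change of each member for CA against control, with its SE as a bar, for 0.29% and 0.54% CA in entire and stained sections on the normalized (circles) and the deposited (squares) scale. Filled symbols passed the test. The C3 estimates lie below 0 in all 4 panels, and the Tf estimates are farther from 0 on the deposited scale.

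Because array-wide scaling bears on each single intensity, the members were also compared with each other within an array, as the log2 ratio of C3, Tf or Fga to Fgb on deposited intensities. A ratio removes a factor common to all intensities of an array, but not scaling that differs with brightness. It shows unequal change of the intensities of its 2 genes and does not say which moved. P-values are from two-sided exact permutation tests, adjusted over the 16 ratios, which were chosen after values had been seen. The C3 to Fgb ratio had a median of 1.21 at 0.54% CA and of 1.62 in controls of entire sections, a log2 difference of -0.42 ± 0.10 (SE; exact adjusted p = 0.0178, n = 6 and 8). At 0.29% CA its median was 1.37, a difference from controls of -0.29 ± 0.07 (exact adjusted p = 0.00995, n = 8 each). In stained sections the difference was -0.42 ± 0.21 at 0.54% CA (exact adjusted p = 0.109, n = 5 and 8) and -0.44 ± 0.20 at 0.29% CA (exact adjusted p = 0.0934, n = 7 and 8), neither of which passed. In entire sections the ratio of C3 to Fgb on deposited intensities was therefore lower at both doses, with ranges that overlapped those of controls. On normalized values the ratio was still called at 0.29% CA but not at 0.54% CA.

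The ratio of d38380_at (Tf) to Fgb differed by -0.40 ± 0.10 at 0.54% CA in entire sections (exact adjusted p = 0.0178, n = 6 and 8) and by -0.19 at 0.29% CA (exact adjusted p = 0.109, n = 8 each). For d38380_g_at to Fgb in entire sections the differences were -0.24 at 0.54% CA (exact adjusted p = 0.0948, n = 6 and 8) and -0.19 at 0.29% CA (exact adjusted p = 0.0934, n = 8 each), and neither was called. In stained sections at 0.54% CA the d38380_at ratio differed by -0.66 ± 0.18 (exact adjusted p = 0.0199, n = 5 and 8), and the ratio of d38380_g_at to Fgb by -0.61 ± 0.16 (exact adjusted p = 0.0186, n = 5 and 8). At 0.29% CA in stained sections the differences were -0.47 for d38380_at (exact adjusted p = 0.0934) and -0.38 for d38380_g_at (exact adjusted p = 0.109; n = 7 and 8), neither of them called. The d38380_at result at 0.54% CA in stained sections was lost without stained 0.54% CA replicate 1, 2 or 5 (exact adjusted p = 0.0517 each). On normalized values the d38380_at ratio differed by -0.06 in entire and by -0.18 in stained sections at 0.54% CA. Of the 5 ratios called on deposited intensities, only that of C3 at 0.29% CA in entire sections was still called on normalized values.

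The 2 fibrinogen chains were compared by the brighter Fga probe set, m35601_g_at. Its ratio to Fgb had medians of 1.12 in controls, 1.21 at 0.29% CA and 1.23 at 0.54% CA of entire sections, and of 1.02, 1.06 and 1.10 in stained sections in the same order. None of the 4 differences was called, the largest being 0.13 in stained sections at 0.54% CA (exact adjusted p = 0.0934, n = 5 and 8), which was called only without stained 0.54% CA replicate 4 (0.16, exact adjusted p = 0.0388). Among stained controls the SD of this log2 ratio was 0.11, beside 0.376 for C3 to Fgb and 0.38 for d38380_at to Fgb (n = 8). By the other Fga probe set, m35601_at, the ratio to Fgb had medians of 1.08 in stained and 0.698 in entire controls, given as a description.

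**Figure D3:**
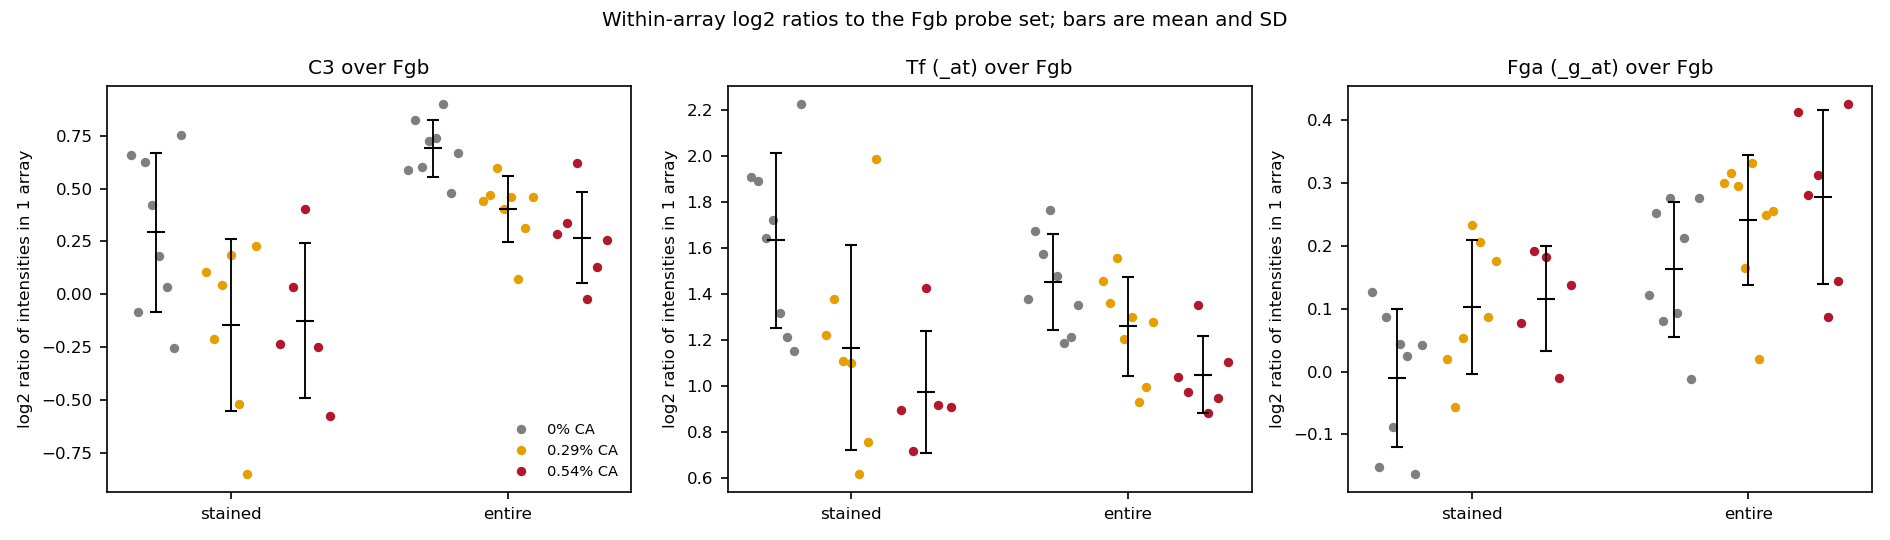
Within-array log2 ratio of deposited intensities to Fgb for C3, d38380_at of Tf and m35601_g_at of Fga, by dose in stained and entire sections. Points are arrays, and bars give the group mean and SD. For C3 in entire sections the mean log2 ratio is 0.27 at 0.54% CA and 0.69 in controls, while for m35601_g_at to Fgb the 6 group means lie between -0.01 and 0.28.

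In stained sections no member was called for CA. Of the 7913 tested probe sets, 3.61% were called at 0.29% CA and 6.31% at 0.54% CA. The lowest, median and highest C3 intensities were 2792, 4566 and 6396 in stained controls (4478 ± 1137, n = 8) and 1671, 3889 and 4559 at 0.29% CA (3418 ± 1057, n = 7). At 0.54% CA the 5 intensities were 3364, 3286, 3872, 2820 and 2291 (3127 ± 598). All 5 arrays at 0.54% CA and all 7 at 0.29% CA lay below the control median. The C3 fold changes were -0.48 ± 0.24 at 0.54% CA (adjusted p = 0.304) and -0.33 ± 0.22 at 0.29% CA (adjusted p = 0.615). On the deposited scale the change at 0.54% CA was -0.50 ± 0.25 (adjusted p = 0.300). Between the doses no member was called, beside 0.0632% of all probe sets (5 of 7913).

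Tf in stained sections gave d38380_at intensities of 11280 ± 2588 in controls (n = 8), 8386 ± 2386 at 0.29% CA (n = 7) and 7377, 5271, 7855, 6331 and 6415 at 0.54% CA (6650 ± 1005, n = 5), so that 4 of 5 arrays at 0.54% CA lay below every control. The normalized fold change at 0.54% CA was -0.33 ± 0.21 (adjusted p = 0.437) and the deposited one -0.74 ± 0.22 (adjusted p = 0.0524). For d38380_g_at the intensities were 12808 ± 3199 in controls (n = 8), 9824 ± 1737 at 0.29% CA (n = 7) and 8603, 7428, 7382, 6761 and 8688 at 0.54% CA (7772 ± 840, n = 5). Its normalized fold change at 0.54% CA was -0.24 ± 0.13 (adjusted p = 0.369), and the deposited one was -0.69 ± 0.19 and passed the test (adjusted p = 0.0351). The Tf call in stained sections therefore depended on the scale.

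Fibrinogen in stained sections was not called at either dose. Fgb averaged 3570 ± 428 in controls (n = 8), 3658 ± 701 at 0.29% CA (n = 7) and 3371 ± 381 at 0.54% CA (n = 5), and its fold change at 0.54% CA was -0.15 with a 95% interval of -0.43 to 0.13. The difference of the CA effect between stained and entire sections was not called for any member at 0.54% CA, beside 0.134% of the 8191 probe sets tested, or at 0.29% CA, beside 0.0855%. For C3 that difference at 0.54% CA was 0.13, with a 95% interval of -0.37 to 0.64, wide enough to hold both no difference and the loss of the fall seen in entire sections.

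Untreated liver differed between stained and entire sections by 4 of the 6 members, while 30.2% of the 8191 probe sets were called. The probe sets of a gene did not move alike. For Fga, m35601_at was 1.52-fold higher in stained sections (log2 0.60 ± 0.11, adjusted p = 8.09e-05), at 3751 ± 725 in stained and 2484 ± 424 in entire controls (n = 8 each), and m35601_g_at was lower (-0.26 ± 0.08, adjusted p = 0.0150), at 3562 ± 560 in stained and 3984 ± 561 in entire controls. C3 was lower in stained sections (-0.54 ± 0.16, adjusted p = 0.00818) and d38380_at of Tf was lower on the normalized scale (-0.36 ± 0.14, adjusted p = 0.0425), whereas d38380_g_at (0.03, adjusted p = 0.831) and Fgb (-0.07, adjusted p = 0.530) were not called.

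Those levels depend on the scale, except the rise of m35601_at, which was 0.59 on the deposited scale (adjusted p = 0.00104). There d38380_at was 0.19 (adjusted p = 0.473), d38380_g_at 0.58 (adjusted p = 0.00544), C3 -0.39 (adjusted p = 0.113), m35601_g_at -0.16 (adjusted p = 0.383) and Fgb 0.01. After centring each array on its 75th percentile, all 6 members were above 0, Tf d38380_at at 0.66, C3 at 0.078, m35601_g_at at 0.30 and Fgb at 0.48. The median change of all probe sets was 0.09 on the normalized scale, -0.11 on the deposited scale and 0.10 after centring. Over the 372 probe sets with a mean intensity over 1000, which include the members, it was 0.09, 0.01 and 0.48 in the same order. After centring 26.3% of those 372 were below 0, so a rise on that scale was common among bright probe sets. With the GAPDH ratio as a covariate none of the 4 was called: m35601_at was at 0.51 (adjusted p = 0.0688), C3 at -0.30 (adjusted p = 0.593), d38380_at at -0.21 (adjusted p = 0.689) and m35601_g_at at -0.09 (adjusted p = 0.816). Among controls that ratio was 4.66 to 18.9 in stained and 1.25 to 6.25 in entire sections. Such a fit cannot separate its part from that of the preparation, and the lost calls do not show which of them matters. The d38380_at call was lost without entire control replicate 1, 2, 3, 4, 6, 7 or 8, without stained control replicate 2, 5, 6 or 8 (highest adjusted p 0.0918), and without the arrays that stood apart (0.0775).

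The ratio of 2 probe sets of a gene on 1 array carries no factor common to the whole array. For Fga, m35601_at over m35601_g_at had a median of 1.08 in stained and 0.634 in entire controls, and the ranges, 0.782 to 1.54 and 0.463 to 0.705, did not overlap. The log2 difference was 0.75 ± 0.14 (SE; exact permutation p = 0.000155, the smallest that 8 against 8 can give; adjusted p = 0.00218 over 14 ratios). At 0.29% CA the medians were 0.873 in stained and 0.641 in entire sections (0.53 ± 0.13, exact adjusted p = 0.00435, n = 7 and 8). At 0.54% CA they were 0.896 and 0.643 (0.46 ± 0.09, exact adjusted p = 0.0121, n = 5 and 6), again without overlap. The ratio was higher in stained sections at every dose, and it was not called for CA against control in either preparation.

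For Tf the ratio of d38380_at over d38380_g_at went the other way, with medians of 0.879 in stained and 1.21 in entire controls (-0.39 ± 0.09, exact adjusted p = 0.00435, n = 8 each). At 0.29% CA the medians were 0.917 in stained and 1.17 in entire sections (-0.47 ± 0.14, exact adjusted p = 0.00435, n = 7 and 8). At 0.54% CA the difference was -0.28 ± 0.13 and was not called (exact adjusted p = 0.143, n = 5 and 6). For both genes the call at each dose named held when any 1 array was left out. The sources at hand do not give where on the transcripts the probes lie. The GAPDH ratio differed between these preparations in the same samples, and its part in the probe set ratios was not tested.

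**Figure D4:**
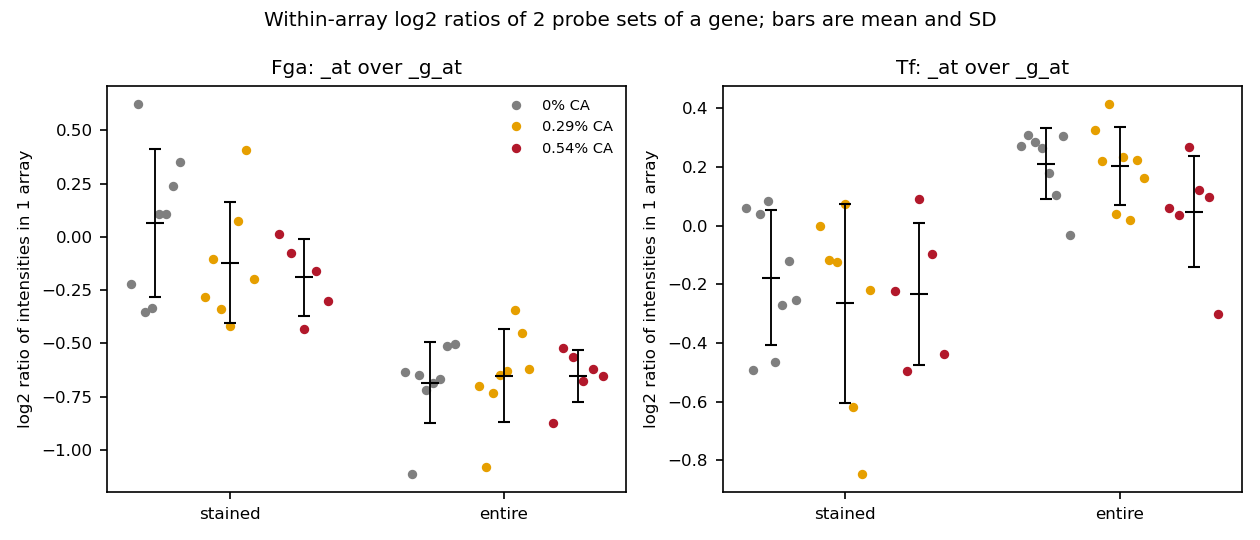
Log2 ratio of the 2 probe sets of Fga and of Tf on each array of stained and entire sections, by dose. Points are arrays, and bars give the group mean and SD. For Fga the mean log2 ratio of controls is 0.07 in stained and -0.68 in entire sections, and for Tf it is -0.18 in stained and 0.21 in entire sections.

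Preparations with 1 array at a dose have no replicate check and are given as values. In dehydrated sections C3 stood at 5868 in the control, 3359 at 0.29% CA and 1722 at 0.54% CA, and d38380_at of Tf at 10889, 6555 and 4518 in the same order. In LCM-reference-time sections C3 stood at 3348, 2926 and 2735, and d38380_at at 13019, 11389 and 6758. In these single-array series, C3 and d38380_at were lower at each higher dose, on normalized values too. For d38380_g_at of Tf the normalized values were 13.27, 13.27 and 12.83 in the dehydrated series and 13.15, 12.97 and 12.90 in the LCM-reference-time series. In the dehydrated series the GAPDH ratio was 6.36, 11.8 and 14.3 and the mean intensity 208, 188 and 161, in the same order. The part of either in these values was not tested. Deposited Fgb intensities were 4519, 3328 and 3136 in the dehydrated series. They were 2160, 2678 and 3573 in the LCM-reference-time series, where the control array had the lowest mean intensity of the 3. On normalized values Fgb showed no such order: it was 11.89, 11.55 and 11.66 in the dehydrated series and 11.70 on each of the 3 LCM-reference-time arrays.

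In microdissected liver C3 stood at 3781 and 2917 in the 2 controls, 2489 at 0.29% CA and 2863 at 0.54% CA. In the same order d38380_at of Tf stood at 12467 and 11564, 6003, and 8061. The d38380_g_at values were 13773 and 16748 in controls, 9201 at 0.29% CA and 9970 at 0.54% CA. On deposited intensities both CA arrays were below both controls for each of these 3 probe sets, and the same held on normalized values for Tf. For C3 it did not: the normalized log2 values were 11.84 and 11.77 in controls, 11.83 at 0.29% CA and 11.34 at 0.54% CA. The mean intensity of these arrays was 164 and 136 in controls, 110 at 0.29% CA and 185 at 0.54% CA, and the 5S rRNA intensity was 97 and 285, 319, and 754 in the same order; the part of either in these values was not tested. Fgb stood at 3428 and 2598 in controls, 2470 at 0.29% CA and 3414 at 0.54% CA, so that its higher CA array lay between the controls and its lower one below them. Fga by m35601_at stood at 3236 and 4085 in controls, 2061 at 0.29% CA and 3551 at 0.54% CA. By m35601_g_at it stood at 3695 and 2051 in controls, 2131 at 0.29% CA and 4305 at 0.54% CA, and in both the groups overlapped.

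With the spread pooled over all 15 groups, which assumes that the lone arrays vary like the others, no member was called for CA against control in microdissected liver, where 12.9% of the 8318 tested probe sets were called. The d38380_at change was -0.36 ± 0.26 (adjusted p = 0.441) and -0.79 ± 0.34 on the deposited scale (adjusted p = 0.186), and that of d38380_g_at was -0.22 ± 0.16 (adjusted p = 0.458) and -0.67 ± 0.31 deposited (adjusted p = 0.244). C3 changed by -0.22 ± 0.31 (adjusted p = 0.780). Leaving out either control array gave no call. Nor was any member called for microdissected liver against stained sections over the 3 doses, where 12.3% of all probe sets were called. C3 differed there by -0.01 with a 95% interval of -0.37 to 0.35, and Fgb by 0.02 with an interval of -0.14 to 0.18.

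Ordered by mean deposited intensity over all 15 groups, d38380_at was highest in the LCM-reference-time control (13019), then in microdissected controls (mean of 12015.5), and lowest in dehydrated sections at 0.54% CA (4518). C3 was highest in the dehydrated control and in entire controls (mean of 5754) and lowest in dehydrated sections at 0.54% CA (1722). Fgb and m35601_g_at were each highest in the dehydrated control and lowest in the LCM-reference-time control, both of them single arrays. Wherever 2 replicated groups stood next to each other in such an order, their ranges overlapped.

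The probe sets most like each gene were taken by Pearson's r of normalized log2 intensity over the 22 entire-section arrays, among 3775 probe sets above the floor on all of them. They share the arrays and the dose groups, and the files do not pair their IDs with genes. For C3 they were m28647_g_at (r = 0.87) and m14775_s_at (r = 0.87), with r of 0.60 and 0.67 over the 20 stained arrays. For Fgb they were x64336_at (0.81, and 0.31 over stained arrays) and rc_ai009405_s_at (0.78 and 0.40). The m35601_g_at probe set of Fga was most like u08136_at (0.74 and 0.33) and af034577_at (0.74 and 0.29), and d38380_g_at of Tf was most like rc_aa799523_g_at (0.75 and 0.33) and aj001929_s_at (0.72 and 0.30). The closest likenesses, those of C3, were also the highest of these over stained arrays.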

How the data were processed

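Arrays of total RNA, 1 per sample and 52 in all, were analysed from a deposited table of linear intensities, whole numbers that are partly below 0. The sources used here do not give the software, scaling or presence calls behind these intensities, nor a batch or scan date. The precision is limited by the number of arrays and by signal over background.

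The 59 control probe sets were left out. Intensities below 4, the 10th percentile of positive intensities, were raised to it, log2 was taken, and the arrays were quantile normalized. Groups follow the labels. limma 3.58.1 in R 4.3.3 (lmFit, eBayes, two-sided) was fitted to all probe sets above the floor on 1 or more of the arrays fitted, with Benjamini-Hochberg adjustment over all of them. Each fit of CA held the 3 doses of its preparation; comparisons between these preparations used the 6 groups, and microdissected liver all 15. Within-array ratios were tested by exact permutation (SciPy 1.17.1, Python 3.11.15), and plots drawn with matplotlib 3.10.9. The fits were also run on simulated data with noise that was independent between arrays, and no result given here rests on that run.

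The members, lists and tests were chosen with earlier results of these data known. Every member is named, and for each gene the 2 probe sets most correlated with its member of highest mean deposited intensity over the 52 arrays. Lists of coagulation, complement and carrier genes and of cell type markers were fixed by symbol and could not be used, since no table given pairs probe sets with symbols. Alternatives were the deposited scale, centring on the 75th percentile, a filter at the 75th percentile (66), a floor of 20, all 15 groups in the fit, the replicate number as a block, the GAPDH ratio as a covariate, leaving out the 6 arrays that stood apart, and leaving out each replicate. The ratios and their alternatives were added after seeing the data.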

Additional observations from a re-analysis of the deposited data

Results flagged for a closer look

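One sample lay far from the others of its group. For m35601_at of Fga, replicate 8 of the entire controls had an intensity of 3384, while the next highest was 2664 and the lowest 2035, so the gap was 0.534 of the range, above Dixon's 95% critical value of 0.526 for 8 samples. It was the only such sample among the 36 groups of member values examined. Chance gives such a sample in about 1 of 20 groups, so 1 among 36 groups is no more than chance would give. Without it the log2 fold change of stained against entire controls for this probe set was 0.66 (adjusted p = 1.92e-05).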

How the results depend on the processing

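The number of members called for 0.29% CA in entire sections, 1, was 0 on the deposited scale, 0 after centring on the 75th percentile, 0 with all 15 groups in the fit, 0 with the replicate block and 0 without the 6 arrays that stood apart. At 0.54% CA it was 1, in place of 3, with all 15 groups and 1 with the replicate block. In stained sections at 0.54% CA it was 1 on the deposited scale and 2 after centring, in place of 0. For stained against entire controls, 4 calls became 2 on the deposited scale and 0 with the GAPDH covariate, and for microdissected against stained liver, 0 became 1 after centring. Directions turned, with a call on either side, for stained against entire controls in d38380_at on the deposited scale (0.19) and, after centring, in d38380_at (0.66), m29866_s_at (0.078), m35601_g_at (0.30) and u05675_at (0.48), and for microdissected against stained liver in d38380_g_at after centring (0.70). Directions turned with no call on either side in 29 further values, among them Fgb for stained against entire controls on the deposited scale (0.0087) and, for microdissected against stained liver after centring, d38380_at (0.51), C3 (0.22) and m35601_g_at (0.19). The cause was not tested. Leaving out each replicate gave 0 to 1 calls at 0.29% CA and 1 to 2 at 0.54% CA in entire sections, 3 to 4 for stained against entire controls, and 0 in the other comparisons. Of the 16 ratios between genes, 5 were called, 1 on normalized values, 8 without the arrays that stood apart, and 4 to 7 without 1 array; of the 14 between probe sets, 5, and 5 to 6 without 1 array. Over all probe sets, the counts at 0.29% and 0.54% CA in entire sections, 877 and 1236, were 539 and 790 with all 15 groups; those in stained sections, 286 and 499, were 546 and 964 in that fit; and 2475 for stained against entire controls were 400 with the GAPDH covariate. Equal replicate numbers were not taken as pairs in the main fits, and whether they pair the samples is not settled. Between 0.29% CA and control, 6 of 8 pairs in entire sections had a correlation of deviations over 0.1. Their median was 0.24, beside 0.03 for unequal numbers. In stained sections 6 of 7 were over 0.1, with medians of 0.47 and -0.12. Between 0.54% CA and control 2 of 6 were over 0.1 in entire sections and 2 of 5 in stained sections, with a median of -0.04 in each. Between stained and entire sections the medians for equal numbers were 0.12 in controls, 0.16 at 0.29% CA and 0.26 at 0.54% CA. For unequal numbers they were -0.04, -0.03 and -0.07 in the same order. The exact permutation tests also took these samples as unpaired. With the replicate block the C3 change at 0.29% CA in entire sections had an adjusted p of 0.0949, and at 0.54% CA d38380_at had 0.0877 and Fgb 0.0643.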
